A study of Mus musculus with 12 samples.

Results

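Resting bone marrow-derived mast cells (BMMCs) labelled heterozygous for a disruption of Elk4 were compared with BMMCs labelled wild type. The comparison rests on 4 of the 12 libraries of the series, 2 labelled Elk4 heterozygous (HZ) and 2 labelled wild type (WT), chosen by their labels. Both groups came from littermates of a conventional Elk4 knockout line on a C57BL/6N background, 6 to 12 weeks old and of both sexes. Bone marrow was grown for 4 to 8 weeks with IL-3 and SCF at 10 ng/ml each, until over 80% of the cells carried both CD117 and FcεRI. The labels of these 4 libraries name no IgE or antigen, and whether the cells had been sensitized with IgE alone is not stated. Conventional means that the disruption is present in every cell of the mouse and from the start of development. The other 8 libraries are 2 of resting cells labelled homozygous knockout (KO) and 6 of cells labelled WT, HZ and KO that were sensitized overnight with anti-DNP IgE and exposed to DNP-HSA for 1 h. They are used here for the estimate of the spread and for values set beside the resting comparison. The labels do not say whether the 2 libraries of a group came from separate mice or cultures, so p-values measure the spread between these libraries, which may be technical.

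ELK4 is a ternary complex factor (TCF), a member of the ETS family that also holds ELK1 and ELK3. TCFs bind DNA together with serum response factor (SRF), whose motif is the CArG box, and are phosphorylated by MAP kinases when a cell receives a growth or antigen signal. The genes they act on include the immediate-early genes, which are switched on within minutes and encode transcription factors such as EGR1 and FOS and phosphatases such as DUSP5 that close the signal again. Mast cells are tissue cells of the allergic response that store histamine and proteases in granules and make cytokines and chemokines when their IgE receptor is crosslinked. IL-3 and SCF keep them alive and dividing in culture.

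The 4 libraries held 29697958 and 31180461 counts (WT) and 32089258 and 30550159 counts (HZ) in genes, and 12208 of 16234 genes had enough counts to be tested. Replicates lay close together, with a biological coefficient of variation of 4.01% over the series. Elk4 itself was counted 2426 and 2740 times in WT and 3238 and 2837 times in HZ. Scaled to library size (CPM), its level was 73.2 and 78.3 in the WT libraries. The HZ libraries were at 93.2 and 86.0, and the KO libraries at 69.7 and 63.5. The libraries labelled HZ were therefore the highest of the 3 genotypes, above both WT libraries, and the log2 difference from WT was 0.24 (SE 0.06, adjusted p = 0.000484). This and every adjusted p below come from the quasi-likelihood test of edgeR and were adjusted by Benjamini-Hochberg across all genes tested. The count covers the whole gene, so it cannot show whether a part of it is missing, and it does not bear out the HZ label. The KO libraries were below WT by 0.19 on the log2 scale, far from a loss of the transcript, so the KO label is not borne out by this count either. A count of RNA does not show whether the protein is lost. Western blots in the paper, made on cultures of the 3 genotypes, are reported there to bear out the deletion. Whether the blotted cultures were those sequenced is not stated. WT, HZ and KO therefore stand below for the libraries so labelled. Of the other TCFs, Elk1 differed by -0.15 on the log2 scale and did not pass (adjusted p = 0.135), and Elk3 differed by 0.20 (adjusted p = 0.0206), a call that was lost when any 1 of WT replicate 1, WT replicate 2 or HZ replicate 2 was left out (0.21, 0.19 and 0.18, adjusted p of 0.0605, 0.104 and 0.119). Srf, the partner of the TCFs, was at 3342 and 3534 counts (WT) against 2450 and 2448 (HZ), a fall of 0.48 on the log2 scale (SE 0.05, adjusted p = 9.52e-12). Mrtfa, the actin-regulated SRF coactivator, went the other way, from 3652 and 3774 counts to 5135 and 4947 (log2 0.45, SE 0.05, adjusted p = 5.61e-11).

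A total of 467 genes were higher and 650 were lower in HZ at an adjusted p below 0.05 and a change of at least 2-fold, which is 3.83% and 5.32% of the genes tested. Without the fold threshold 3099 genes (25.4%) were higher and 3175 (26.0%) were lower, and these shares are the background against which each gene list below is read. The 2 WT and 2 HZ libraries did not overlap in 73.6% of all genes tested, and the median log2 fold change over all genes was 0.0018. On deposited FPKM values, tested with limma on log2(FPKM + 1) where the mean FPKM reached 0.5, 131 genes were higher and 283 lower at the same thresholds, a smaller count with a larger part on the lower side.

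**Figure D1:**
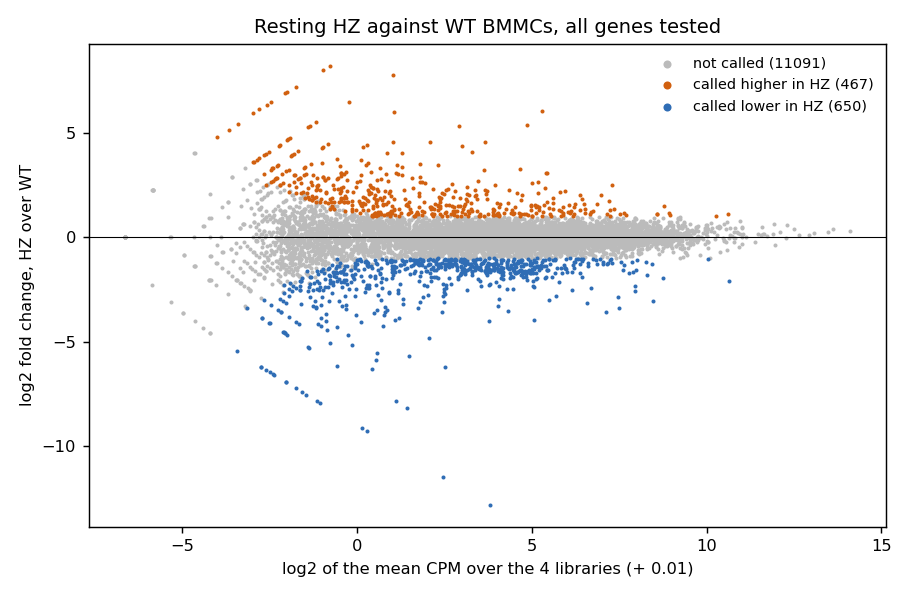
Each point is one of the 12208 genes tested, with its mean level in the 4 libraries on the horizontal axis (log2 of CPM) and the log2 fold change of HZ over WT on the vertical axis. The 467 genes called higher (orange) and the 650 called lower (blue) lie on both sides of 0, and the 2 points furthest down are genes with no count in either HZ library.

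Immediate-early genes were mostly lower. Of 31 genes tested, 24 were lower and 5 higher in HZ, with 17 lower and 2 higher by at least 2-fold, and the median log2 fold change was -1.16 against 0.0018 for all genes. The EGR family of zinc finger factors fell as a whole. Egr1 was counted 22951 and 23764 times in WT and 6216 and 5791 times in HZ (log2 -1.95, SE 0.02, adjusted p = 1.77e-47). Egr2 went from 8767 and 8765 counts to 724 and 757, which is 11.8-fold lower (log2 -3.56, SE 0.04, adjusted p = 1.37e-50). Egr3 was the most abundant immediate-early transcript by count, with 85374 and 90426 in WT and 21315 and 19958 in HZ (log2 -2.08). Egr4 was nearly lost, from 413 and 355 counts to 1 and 9 (log2 -6.22, SE 0.24, adjusted p = 2e-26). In none of the 4 did a HZ library reach a WT library. Nab2, a corepressor that binds EGR proteins, was higher instead, with 1123 and 1183 counts in WT and 2715 and 2688 in HZ (log2 1.24, SE 0.06, adjusted p = 2.27e-23).

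The FOS and JUN subunits of AP-1 were all lower except Jund. Fosb fell from 21044 and 21900 counts to 2639 and 2513 (log2 -3.05, SE 0.03, adjusted p = 1.9e-52). Jun fell from 14213 and 14705 to 2415 and 2431 (log2 -2.57, SE 0.03), and Fos from 520 and 499 to 84 and 90 (log2 -2.54, SE 0.09). Fosl1 (log2 -3.19), Fosl2 (-1.10) and Junb (-0.79) were lower as well, whereas Jund, the subunit that most cells hold at a steady level, differed by 0.07 with 21804 and 21554 counts in WT and 22732 and 22533 in HZ. Atf3, a stress-induced partner of JUN, fell from 1045 and 955 counts to 114 and 93 (log2 -3.26, SE 0.08). The nuclear receptors Nr4a1 (log2 -3.36), Nr4a3 (-2.21) and Nr4a2 (-0.76) were all lower, and Nr4a1 went from 10774 and 11322 counts to 1127 and 1016. Among the phosphatases that switch off MAP kinases, Dusp5 (-2.38), Dusp6 (-1.64), Dusp4 (-0.86) and Dusp1 (-0.70) were lower, and Dusp2, at 10 and 27 counts in WT and 70 and 45 in HZ, was higher (1.64). Klf10 (0.72) and Ier3 (0.10) also passed the test on the higher side.

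**Figure D2:**
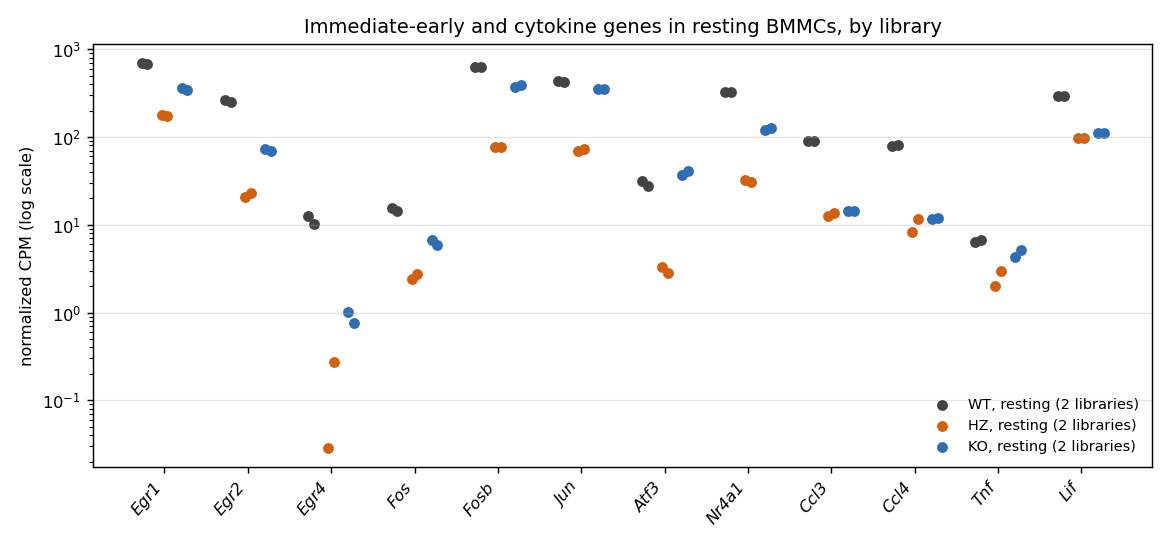
CPM on a log scale for 12 immediate-early, chemokine and cytokine genes, 1 point per library, in resting WT (black), HZ (orange) and KO (blue) BMMCs. Both HZ points lie below both WT points in every gene shown. By log2 difference from WT, KO lies closer to WT than to HZ in Fosb, Jun, Atf3, Nr4a1 and Tnf. It lies closer to HZ in Egr4, Ccl3, Ccl4 and Lif, and near midway in Egr1, Egr2 and Fos.

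Levels in the KO libraries are set beside these without a test between HZ and KO, and both comparisons share the 2 WT libraries. The log2 difference of KO from WT was -0.97 for Egr1, -1.85 for Egr2, -3.66 for Egr4, -0.73 for Fosb, -0.28 for Jun, 0.41 for Atf3, -1.40 for Nr4a1 and -1.57 for Dusp5. For the 31 immediate-early genes together the median was -0.35 in KO and -1.16 in HZ.

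The CArG box was looked up in promoters, since it is the DNA element through which SRF and the TCFs meet. Promoters were taken from RefSeq (GRCm38.p6, 250 bases before to 50 after each listed start, 300 bases in all), which is an older build than the GRCm39 named in the submitters' processing notes. The box was searched as CC, 6 bases that are each A or T, then GG, a pattern that reads the same on both strands. It was present in 535 of 32851 promoters (1.63%), in 147 of the 9828 tested genes with a promoter (1.5%), and in 3 of the 23 immediate-early genes with one. Those 3 were Dusp5, Egr2 and Zfp36, which are shown as the only matches in the list, and all 3 were lower in HZ. Of the 24 immediate-early genes that were lower, 18 had a promoter entry and 3 of these held the box. Genes of the list without a promoter entry could not be searched. The 150 bases that end just before the start are printed 5′ to 3′ on the gene's strand, with CArG boxes in capitals. They are chr19:53528995-53529144 (plus strand) for Dusp5, chr10:67537719-67537868 (plus strand) for Egr2 and chr7:28379229-28379378 (minus strand) for Zfp36.
Dusp5: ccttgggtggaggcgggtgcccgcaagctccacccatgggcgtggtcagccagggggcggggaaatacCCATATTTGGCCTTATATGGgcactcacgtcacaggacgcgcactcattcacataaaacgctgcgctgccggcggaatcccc
Egr2: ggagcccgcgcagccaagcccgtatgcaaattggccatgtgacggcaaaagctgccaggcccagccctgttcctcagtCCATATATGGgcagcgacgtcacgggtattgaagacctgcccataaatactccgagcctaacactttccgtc
Zfp36: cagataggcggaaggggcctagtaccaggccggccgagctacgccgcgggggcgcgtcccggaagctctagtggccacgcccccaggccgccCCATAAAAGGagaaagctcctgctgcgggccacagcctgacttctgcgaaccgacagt
Dusp5 holds 2 boxes side by side that begin 82 and 72 bases before the start, Egr2 holds 1 at 72 bases and Zfp36 holds 1 at 58 bases. Egr2 has 5 promoters in the table, and the one printed is the middle one by position. Zfp36, which encodes a protein that speeds the decay of cytokine mRNAs, was at 294 and 312 counts (WT) against 219 and 179 (HZ) (log2 -0.60). The exact string CCGGAAGT, 1 form of the ETS motif, was searched on both strands. It was in 9.33% of the tested genes with a promoter and in none of the 23 immediate-early genes. Looser forms of the motif were not searched. Among genes called at least 2-fold lower the CArG box was in 10 of 509 (1.96%) and among those called higher in 7 of 344 (2.03%). A match is a stretch of letters and not a site known to be bound.

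Wider sets of TCF and SRF genes lay closer to WT. Of 75 genes that the study lists as bound by TCFs, 27 were lower and 14 higher (6 and 1 by at least 2-fold), and the median log2 fold change was -0.09. Those past 2-fold on the lower side were Egr2, Nr4a1, Fos, Egr1, Ptgs2 and Ier2, all but Ptgs2 also in the immediate-early list. The 1 past 2-fold on the higher side was Ddah2, an enzyme that breaks down an inhibitor of nitric oxide synthase, with 1057 and 1031 counts in WT and 2093 and 2138 in HZ (log2 1.03, SE 0.06). Of 17 cytoskeletal genes of the SRF pathway 10 were lower and 4 higher, with a median of -0.17. The actin-binding tropomyosin gene Tpm4 fell from 402 and 409 counts to 116 and 130 (log2 -1.71) and the LIM-domain gene Fhl2 from 545 and 581 to 189 and 223 (-1.44), while the focal adhesion gene Vcl rose from 5785 and 6499 to 10519 and 9663 (0.73).

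Chemokines and cytokines, which activated mast cells secrete, moved in both directions at rest, with 4 of 13 chemokines lower and 4 higher. Ccl3 fell from 3003 and 3184 counts in WT to 433 and 449 in HZ (log2 -2.80, SE 0.04, adjusted p = 1.92e-43). Ccl4, its neighbour in the genome, had 2591 and 2817 against 285 and 383 (log2 -3.01, SE 0.06, adjusted p = 1.9e-38). In both, the 2 HZ libraries lay far below the 2 WT libraries. Ccl7 (log2 -1.20) and Ccl2 (-0.52) fell too, while those that rose included Ccl9 (164 and 149 counts to 568 and 562, log2 1.86) and the membrane-bound Cxcl16 (16 and 10 to 102 and 109, log2 3.01). The median of the chemokine list was -0.52 over the 13 genes tested. It was 0.01 without WT replicate 2, where the filter on low counts was run anew and kept a different set of genes. With DESeq2, where 17 chemokines entered, it was 0. Since the low-count genes that enter differ between these fits, the median gives the list no firm direction.

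Of 16 cytokines 8 were lower and 2 higher. Lif, a member of the IL-6 family, fell from 9645 and 10164 counts to 3382 and 3182 (log2 -1.58, SE 0.02, adjusted p = 8.35e-44). Its relative and genomic neighbour Osm fell from 5564 and 5671 to 2408 and 2222 (-1.27). Il6 itself fell from 1871 and 2111 to 1012 and 1012 (-0.97), Il13, a driver of allergic inflammation, from 647 and 798 to 275 and 312 (-1.29), and Tnf from 211 and 236 to 69 and 97 (-1.42). Each of these had both HZ libraries below both WT libraries. The 2 that rose were Il1b, from 18 and 11 counts to 157 and 140 (log2 3.35), and Il4 (0.71), which promotes IgE production. Il3 and Csf2 had no count in any of the 4 libraries, which allows up to 3 counts in each by counting error alone.

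Genes of cell division were lower almost without exception. All 54 genes of the G2 and M phases were lower in HZ, 38 of them by at least 2-fold, with log2 fold changes from -2.09 to -0.18 and a median of -1.46. Mki67, the proliferation antigen, was at 15888 and 17078 counts (WT) against 5171 and 4315 (HZ) (log2 -1.79, SE 0.04, adjusted p = 2.03e-35). Top2a, which untangles chromosomes before they separate, had 10994 and 12011 against 3664 and 3405 (log2 -1.69). Ube2c, an enzyme that marks mitotic cyclins for destruction, had 1723 and 1878 against 399 and 440 (log2 -2.09, SE 0.10). The mitotic kinase Cdk1 (-1.42) and its partners Ccnb2 (-1.73) and Ccna2 (-1.68) were lower together. Ccna2 went from 3320 and 3325 counts to 1054 and 1006, with no overlap. In bulk RNA, fewer dividing cells and less of each transcript per dividing cell cannot be told apart.

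The S phase list followed with 37 of 43 genes lower, 16 of them by at least 2-fold, 1 higher and a median of -0.91. Rrm2, a subunit of the enzyme that makes deoxynucleotides, fell from 4389 and 4862 counts to 1241 and 1240 (log2 -1.89, SE 0.05, adjusted p = 1.63e-33). The replicative helicase subunits Mcm7 (-1.01), Mcm5 (-0.98), Mcm4 (-0.88) and Mcm6 (-0.62) fell by less, as did the sliding clamp Pcna (-0.57). The 1 gene that rose was Chaf1b, a histone chaperone subunit (log2 0.39, from 1413 and 1354 counts to 1893 and 1727).

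Of 24 cyclins, kinases and inhibitors of the G1 phase 16 were lower and 3 higher, with a median of -0.49. Without HZ replicate 1, 1 was higher. E2f2 (535 and 565 counts to 203 and 189, log2 -1.48) and E2f7 (732 and 784 to 260 and 254, -1.55) were lower. Cdk2, the kinase that pairs with cyclins E and A, differed by -0.30 (SE 0.06, adjusted p = 3.69e-05). Cdk6, which acts early in G1, differed by -0.08 (adjusted p = 0.0341), with 12754 and 14329 counts in WT and 13213 and 12199 in HZ. The groups overlap in raw counts but not in CPM, where library size is scaled out. The call of Cdk6 was lost without WT replicate 2 (-0.04) or without HZ replicate 2 (-0.07). Cdkn1b, the inhibitor p27 that holds cells in G1, rose from 1658 and 1840 counts to 3316 and 2947 (log2 0.85, SE 0.06, adjusted p = 2.23e-16).

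**Figure D3:**
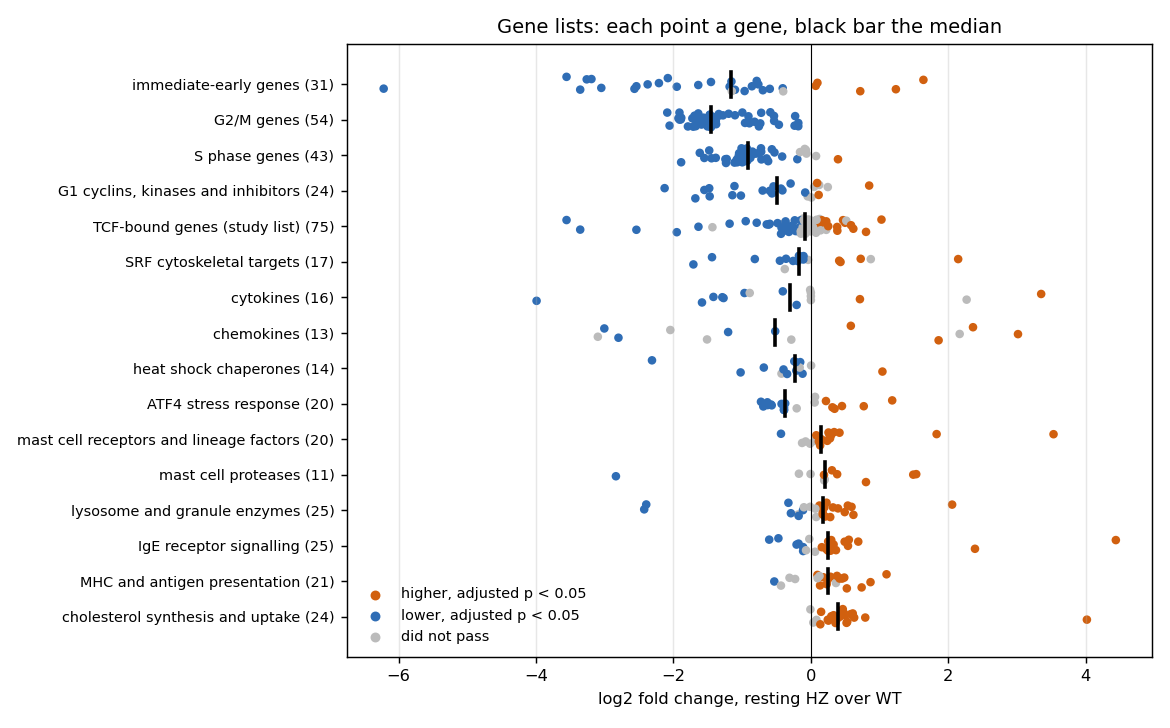
Log2 fold change of HZ over WT at rest (horizontal axis) for the genes of 16 lists, 1 point a gene, with the number tested in brackets and the median as a black bar. Points are orange or blue where the gene passed an adjusted p below 0.05 on the higher or lower side, and the whole G2/M list lies left of 0 while nearly all of the cholesterol list lies right of it.

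The cells carried the genes that define mast cells. Kit, the SCF receptor, was at 163189 and 174164 counts (WT) against 172916 and 159809 (HZ), a log2 difference of -0.01 that did not pass (adjusted p = 0.639), but scaling by library totals gave -0.06 with an adjusted p of 0.00441. The subunits of the IgE receptor were slightly higher, Fcer1a by 0.27 (131725 and 136765 counts to 161650 and 160550) and Ms4a2 by 0.24, while Fcer1g differed by 0.05 and did not pass. Il1rl1, the receptor for IL-33, rose by 0.42 (SE 0.02, adjusted p = 2.44e-24). Of 20 receptors and lineage factors 14 were higher and 1 lower, most of them by little, with a median of 0.15. Among the transcription factors Gata2 (0.14), Gata1 (0.16) and Spi1 (0.28) were higher, Mitf (-0.08) did not pass, and Meis2 (-0.44) was lower. Summed over the marker list of mast cells, which had 12 genes tested, the level was 53988 and 53110 CPM in WT and 64536 and 65778 in HZ.

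Marker lists of other cell types were then summed in each library. Of 14 neutrophil and progenitor markers 3 could be tested, and their sum of 306 and 308 CPM in WT against 43.5 and 45.0 in HZ was carried by Ctsg, the gene of cathepsin G. Ctsg was at 10112 and 10750 counts (WT) against 1452 and 1447 (HZ) (log2 -2.84, SE 0.05, adjusted p = 2.42e-41), and cathepsin G is a protease of mast cells as well, while Mpo, S100a8, S100a9 and Ly6g were too low to be tested. The macrophage list summed to 53.2 and 49.4 CPM in WT and 40.0 and 41.2 in HZ. That fall was carried by Cd68 (1367 and 1291 counts to 718 and 670), and the rest of the list did not fall in sum. Of 9 genes tested 3 were lower, Cd68 among them, and 2 higher, and C1qa, C1qb, C1qc, Mrc1 and Marco were too low to be tested. The basophil list summed to 671 and 686 against 739 and 739, the dendritic cell list to 11.7 and 9.69 against 5.59 and 6.43, the erythroid list to 5.22 and 4.32 against 13.3 and 12.5, the eosinophil list to 6.01 and 5.75 against 5.59 and 5.70, and the lymphocyte list to 0.211 and 0.314 against 0.374 and 0.455. The fall of the dendritic cell sum was carried by Itgax, the 1 of 4 genes tested that passed on the lower side. The megakaryocyte list summed to 2499 and 2473 against 3379 and 3360, carried by Itga2b, Gp1ba and Vwf, with Pf4 too low to be tested. The part of these genes in the other differences was not tested. Of 12 sex-linked genes listed only 4, all X-linked, were in the count table, and Xist and the Y-linked genes were absent from it. Of these 4 genes 2 were higher and 1 lower, with a median of 0.07. The calls of Kdm6a (0.13) and Eif2s3x (-0.13) among them were each lost without 1 or another library, and the sex of the mice behind each library is not given in the labels.

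Granule contents shifted gene by gene. Of 11 mast cell proteases 6 were higher and 1, Ctsg, lower, with a median of 0.20. The chymase Mcpt4 rose from 639 and 635 counts to 1818 and 1741 (log2 1.49, SE 0.08, adjusted p = 2.86e-21) and granzyme B (Gzmb) from 47467 and 50475 to 84963 and 84665 (0.80, SE 0.02). The abundant carboxypeptidase Cpa3 (0.31), chymase Cma1 (0.38) and tryptase Tpsb2 (0.19) rose by little, and Tpsg1 (-0.00) did not pass. Of 25 lysosome and granule enzymes 14 were higher and 6 lower, with a median of 0.17. Ctsd (log2 0.62) and Man2b1 (0.59) rose. Arsb, a sulfatase that degrades dermatan sulfate, fell from 340 and 325 counts to 67 and 56 (-2.43).

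Genes for histamine and serotonin went both ways, 4 of 7 higher and 2 lower. Hdc, the only enzyme that makes histamine, was lower by 0.21 (4345 and 4259 counts against 3969 and 3438, SE 0.04, adjusted p = 1.86e-05), where the KO libraries differed from WT by -2.89. Ddc, which completes the synthesis of serotonin, fell from 3531 and 3673 counts to 1815 and 1819 (-0.98). The vesicular transporter Slc18a2 (0.44) and the serotonin uptake transporter Slc6a4 (21 and 16 counts to 160 and 130, log2 2.97) were higher. Of 15 genes for proteoglycans and heparin 6 were higher, among them the heparin enzyme Ndst2 (0.49), and 3 lower. Of 22 genes of the exocytosis machinery 9 were higher, among them the priming factor Unc13b (0.60), and 3 lower, among them Syt9 (-0.53) and Exoc4 (-0.43), and the median was 0.12.

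Of 25 genes that relay the IgE receptor signal 16 were higher and 6 lower, with a median of 0.25. The PI3-kinase subunit Pik3cd rose from 28216 and 29488 counts to 48084 and 44473 (log2 0.69, SE 0.02, adjusted p = 8.37e-28), the adaptor Lat2 by 0.54, the kinases Btk and Lyn by 0.29 and 0.25, and the phosphatases Ptpn6 and Inpp5d, which dampen the signal, by 0.49 and 0.25. Syk, another kinase of the cascade, differed by 0.06 and did not pass. Fyn, the Src-family kinase upstream of PI3-kinase, fell from 1951 and 1955 counts to 1335 and 1217 (-0.61), and Rasgrp1, which links calcium and lipid signals to Ras, from 1007 and 1224 to 855 and 742 (-0.47).

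Receptors and adhesion molecules held some of the widest gaps. Itgb3, the integrin beta 3 chain, rose from 269 and 353 counts to 2618 and 2575, which is 8.41-fold (log2 3.07, SE 0.08, adjusted p = 1.01e-33), and Itgb2 from 390 and 399 to 1352 and 1357 (1.79). Itgax fell from 251 and 196 to 45 and 43 (-2.34) and the hyaluronan receptor Cd44 from 2368 and 2591 to 1754 and 1599 (-0.56). In the integrin list 10 of 19 were higher and 5 lower, and 3 were lower without HZ replicate 1. Of 25 chemokine, complement and prostanoid receptors 10 were higher and 7 lower. The leukotriene B4 receptor Ltb4r1 fell from 755 and 764 counts to 273 and 247 (-1.54) and C5ar1, the receptor for the complement fragment C5a, from 304 and 261 to 118 and 99 (-1.37), whereas the leukotriene receptor Cysltr2 rose from 41 and 52 to 188 and 179 (1.99). Of 17 inhibitory and accessory receptors 10 were higher, among them Cd84 (0.70) and Cd300lf (0.56), and 3 lower, among them Cd244a (-0.49).

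In eicosanoid synthesis 5 of 12 genes were higher and 5 lower, and the 2 cyclooxygenases differed in direction. Ptgs1, the constitutive form, rose from 1096 and 1163 counts to 4715 and 4318 (log2 2.01, SE 0.05, adjusted p = 6.73e-35). Ptgs2, the inducible form, was at 66 and 138 counts (WT) against 21 and 44 (HZ) (-1.64). Alox5ap rose by 0.57 and Ltc4s, the enzyme that makes leukotriene C4, fell from 1332 and 1351 to 588 and 722 (-1.02).

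Genes of cholesterol synthesis and uptake moved together, with 21 of 24 higher, none lower and a median of 0.40. Mvd, an enzyme of the mevalonate pathway, rose from 432 and 484 counts to 792 and 783 (log2 0.79, SE 0.10, adjusted p = 3.06e-09), with both HZ libraries above both WT libraries. Dhcr7, which makes the last step to cholesterol, rose from 1144 and 1295 counts to 1854 and 1841 (0.61), the sterol sensor Insig1 from 3766 and 3849 to 5306 and 5139 (0.46) and Cyp51 from 3020 and 3293 to 3984 and 3727 (0.30). The master regulator Srebf2 was higher by 0.36. Hsd17b7, Sqle and Ebp did not pass. For these 24 genes the median of KO against the same WT libraries was 0.33.

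Stress genes were lower or mixed. Of 14 heat shock chaperones 10 were lower and 1 higher, with a median of -0.23. The cochaperone Dnajb1 fell from 13711 and 14136 counts to 2852 and 2720 (log2 -2.31, SE 0.03, adjusted p = 6.16e-47) and the ER chaperone Hspa5 from 46675 and 48229 to 24070 and 22379 (-1.02, SE 0.02). In KO they differed from the same WT libraries by -0.76 and 0.04. Hspa1b (27 and 33 counts to 59 and 64, log2 1.04) was the 1 that rose. In the list of genes activated by ATF4 under amino acid shortage 11 of 20 were lower and 6 higher. Those lower included Atf4 itself (-0.43), the transcription factor Cebpb (-0.63), Psat1 (-0.73) and Phgdh (-0.63) of serine synthesis, Asns (-0.69), which makes asparagine, and Shmt2 (-0.58) and Mthfd2 (-0.57) of one-carbon metabolism. Those higher included Slc7a11 (1.18), Ddit4 (0.77) and Ddit3 (0.45).

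Smaller groups gave mixed counts. Of 21 genes of glycolysis and hypoxia 7 were lower, including Hk2 (-0.56) and Pfkp (-0.55), and 7 higher, including Ndrg1 (2971 and 2876 counts to 7488 and 6992, log2 1.32) and the glucose transporter Slc2a3 (0.86). Of 21 genes of MHC and antigen presentation 14 were higher and 1 lower (median 0.25), and 2 were lower without HZ replicate 2. Of 22 interferon-stimulated genes 3 were higher and 3 lower, and without WT replicate 2 or HZ replicate 2 only 1 was higher. In the BCL2 family 6 of 15 were higher, led by the death-promoting genes Bmf (316 and 340 counts to 665 and 691, log2 1.06) and Bcl2l11 (0.60), and 2 were lower, the death-promoting Pmaip1 (-0.46) and the survival gene Mcl1 (-0.14). Of 7 sirtuins, which are NAD-dependent deacylases, 3 were higher, including Sirt1 (0.43) and Sirt3 (0.37). Of 11 mediator and cell cycle genes that were also assayed by quantitative PCR, all passed on the lower side, with a median of -1.42. The call of Cdk6 among them was lost with DESeq2 (adjusted p = 0.0504) and in a fit of the 4 libraries alone (adjusted p = 0.0561). These genes were picked by the study in cells of the same mouse line, so their direction is not independent evidence. The list leaves out other genes assayed that way, of which Vcl (0.73), Syngr1 (174 and 149 counts to 1539 and 1568, log2 3.27) and Cadm1 (1245 and 1458 to 3695 and 3579, log2 1.44) were higher. Exoc3l1, which the study assayed together with them, is not reported here.

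The genes with the widest gaps were mostly not of these lists. The 12 furthest in each direction were taken among called genes with no overlap and at least 100 counts in the higher group. Vmn2r96, a vomeronasal receptor gene, had 951 and 932 counts in WT and none in either HZ library, which makes it at least 312-fold lower against a floor of 3 counts per library. Capn11, a calpain protease gene, had 333 and 418 counts against none, at least 124-fold lower. Olr1, a scavenger receptor for oxidized lipoprotein, had 178 and 185 against 1 and 0, and Map9, which binds microtubules, 138 and 155 against 0 and 1. Cadps2, a factor that primes secretory vesicles, fell from 920 and 838 to 70 and 40 (log2 -3.99, SE 0.17), and the unnamed locus LOC118568652 from 2098 and 2152 to 130 and 145 (-3.94). The rest on the lower side were Egr4, Rbfox1 (-5.66), LOC115490200 (-4.82), Tgtp1 (-4.26), Atp9a (-3.95) and Calcrl (-3.85).

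On the higher side Scara5, a ferritin receptor, went from 0 and 1 counts to 133 and 138. The olfactory receptor gene Olfr1033 went from 27 and 51 to 2842 and 2347 (log2 6.06, SE 0.14, adjusted p = 7.87e-36). F13a1, the clotting factor XIII A chain, went from 33 and 58 to 1961 and 1869, which is 42.2-fold (log2 5.40, SE 0.12, adjusted p = 7.26e-36). Twist2, a repressor of the basic helix-loop-helix class, went from 0 and 4 to 134 and 139, and the neuronal genes Nrgn (17 and 8 to 534 and 465, log2 5.31) and Syn2 (31 and 37 to 822 and 801, log2 4.58) were higher. Slc6a12 (4.58), Greb1 (4.55), Nrn1 (4.37), Tspan8 (4.09) and Gcsam (4.02) rose as well. The KO libraries differed from the same WT libraries by -12.80 for Vmn2r96, -5.74 for Olr1, -3.65 for Cadps2, 7.74 for Scara5, 4.78 for Olfr1033 and 5.47 for F13a1, where the first rests on a group without counts and depends on the prior count.

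**Figure D4:**
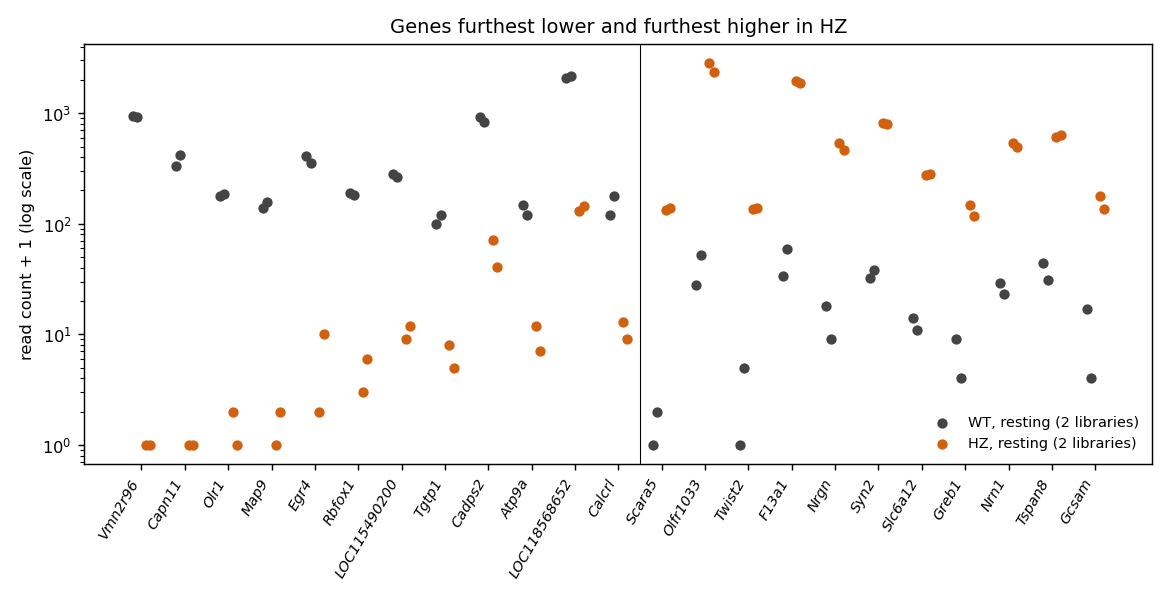
Read counts plus 1 on a log scale in the 2 WT (black) and 2 HZ (orange) resting libraries for the 12 genes furthest lower (left of the line) and 11 of the 12 furthest higher (right) in HZ. No gene has overlapping groups, as the choice required, and Vmn2r96 and Capn11 sit at a count of 0 in both HZ libraries.

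The same genotypes were then read in cells stimulated for 1 h, in 4 other libraries. Their levels do not enter the resting differences, but they share in the estimate of the spread behind the resting p-values. The labels number them like the resting libraries and do not say whether the cultures were the same. Across all genes 2250 (18.4%) were higher and 2016 (16.5%) lower in stimulated HZ than in stimulated WT at an adjusted p below 0.05. Of the 467 genes called higher at rest 234 (50.1%) passed on the higher side when stimulated and 12 passed on the lower side. Of the 650 called lower at rest 291 (44.8%) passed on the lower side when stimulated and 54 on the higher side. The median log2 fold change went from 1.80 at rest to 0.80 for the first set and from -1.58 to -0.44 for the second. The interaction, which tests the difference of the 2 differences, passed with a smaller gap under stimulation for 195 of the 467 and 379 of the 650, and with a larger one for 8 and 15. Over all genes tested the interaction passed, in either direction, for 4705 of 12208. Genes called at rest were chosen for a large resting gap, so some shrinkage in other libraries follows from the choice. The interaction uses those same resting values.

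The immediate-early genes no longer lay to one side when stimulated. Their median log2 fold change was -1.16 at rest and 0.03 when stimulated, with 13 higher and 11 lower of 31. Egr1 differed by 0.06 when stimulated, Fosb by 0.06, Nr4a1 by -0.12, Egr2 by -0.25 and Jun by 0.38. Klf2, at -1.45 at rest, was at 1.39 when stimulated. The S phase list turned from a median of -0.91 to 0.26, with 30 of 43 genes higher and 1 lower in stimulated HZ. The G2/M list stayed on the lower side with 34 of 54 genes lower, 1 higher and a median of -0.29. Ccl3 and Ccl4 were still lower when stimulated, by 0.70 and 0.79 on the log2 scale, while Il6 (0.05, adjusted p = 0.169) and Tnf (-0.01, adjusted p = 0.845) no longer passed. Ctsg (-2.66), F13a1 (5.22), Itgb3 (2.54) and Ptgs1 (1.97) kept differences near those at rest. Hdc went the other way, from -0.21 at rest to -1.35 when stimulated (adjusted p = 8.67e-33).

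**Figure D5:**
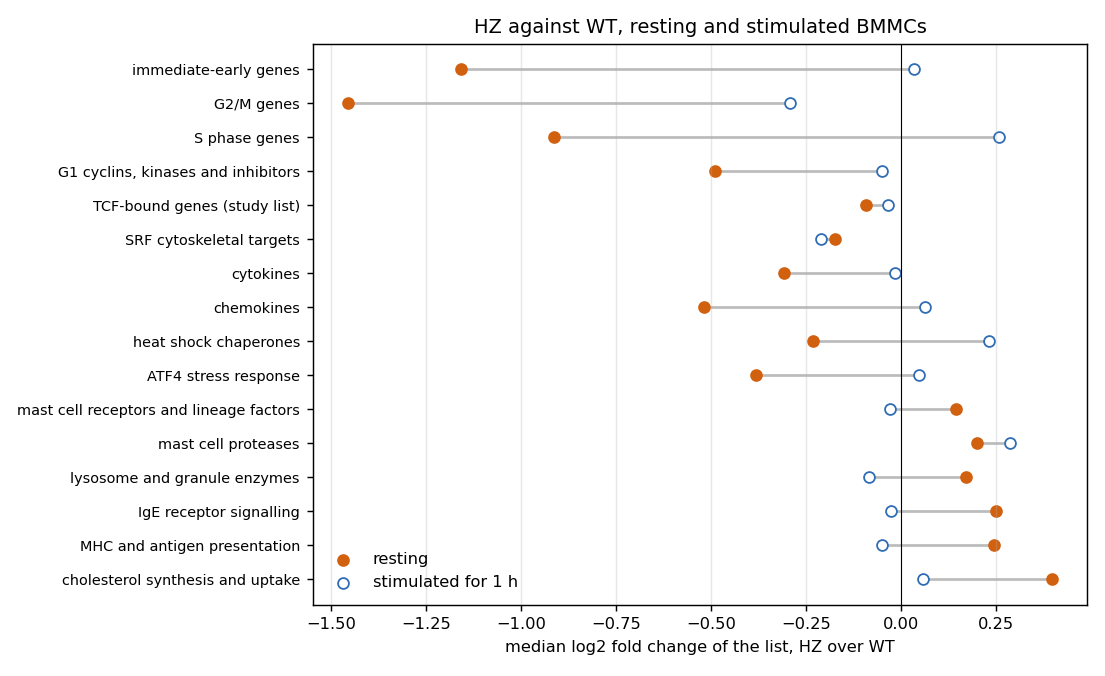
Median log2 fold change of HZ over WT for 16 gene lists in resting cells (filled orange) and in cells stimulated for 1 h (open blue), each from its own 4 libraries. The immediate-early list goes from -1.16 to 0.03 and the S phase list from -0.91 to 0.26, while the protease list stays on the higher side.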

How the data were processed

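RNA was measured by RNA-seq in 12 libraries of BMMCs, 6 groups of 2. The authors deposited raw read counts per gene and, in a second file, FPKM of those genes. The submitters' processing notes name fastp, HISAT2, HTSeq and GRCm39, without versions, and whether counting used strand is not given in the sources used here, so overlapping genes cannot be told apart. The reported fit used edgeR 4.0.16 under R 4.3.3, on genes kept by filterByExpr (12208 of 16234), TMM scaling (factors of 1.08 to 1.12 at rest), 1 mean for each of the 6 groups, a common dispersion of 0.00161, 6 residual and 38.9 prior degrees of freedom, and 0.125 as prior count. Benjamini-Hochberg adjustment ran over all genes tested, from two-sided p-values. CPM are counts scaled by TMM. The fit was tested on simulated counts. DESeq2 1.42.0 and limma 3.58.1 (on log2 FPKM) were alternatives. Counts of 0 allow up to 3 counts, and intervals cover counting error only. Named genes were the TCFs, 11 of the genes that the study assayed by quantitative PCR, the 12 furthest in each direction, and up to 2 per list and direction whose higher group averaged 100 counts or more. Egr1, Fos, Fosb, Jun, Atf3, Mki67, Top2a, Cdk1, Syngr1, Cadm1, Gpr65, Galc and further list members were named after their values were seen. Some named genes are not reported here. The comparison, the lists and the tests were chosen with earlier results of these data known. Same-numbered replicates did not deviate together (Pearson r of -0.042, -0.035 and 0.081 between groups over 9161 genes), so no pairing was assumed.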

Additional observations from a re-analysis of the deposited data

Results flagged for a closer look

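Of 142 named genes, 47 had a difference between HZ and WT that was not the same in resting and stimulated cells, by an interaction of at least 1 in size on the log2 scale at an adjusted p below 0.05 (quasi-likelihood test of edgeR, adjusted by Benjamini-Hochberg across all genes). The values are the stimulated minus the resting log2 difference, so a positive value means that HZ stood higher relative to WT when stimulated. In 42 of the 47 the gap was smaller in size when stimulated, and in 11 the 2 states passed in opposite directions. Named genes were chosen in part for a large resting gap, which the interaction uses again. Over all genes tested the interaction passed for 4705 of 12208 at any size. The cause was not tested.

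Among transcription factors of the immediate-early group and their regulators the values were Egr4 (4.30), Atf3 (3.80), Egr2 (3.31), Nr4a1 (3.24), Fosb (3.11), Jun (2.95), Fos (2.81), Egr1 (2.01) and Nab2 (-1.68). Among chemokines and cytokines they were Ccl4 (2.22), Ccl3 (2.10), Lif (1.41), Tnf (1.41), Il6 (1.01), Ccl9 (-1.07) and Cxcl16 (-2.33). Among genes of cell division they were Rrm2 (2.01), E2f7 (1.68), E2f2 (1.64), Gtse1 (1.46), Top2a (1.45), Mki67 (1.42), Ccna2 (1.40), Cdk1 (1.30) and Ube2c (1.12). Among stress and metabolic genes they were Dnajb1 (1.71), Hspa5 (1.15), Psat1 (1.05), Ptgs2 (2.10), Ifit2 (1.91), Ndrg1 (-1.08) and Slc7a11 (-1.41). Among granule, receptor and signalling genes they were Mrgprb1 (1.87), Arsb (1.26), Galc (2.14), Man2b1 (-1.23), Itgb2 (-1.29), Slc6a4 (-1.80) and Hdc (-1.14). Among the genes furthest from WT they were Greb1 (-2.54), Slc6a12 (-2.44), Nrgn (-2.29), Olfr1033 (-2.11), Atp9a (-2.06), Syn2 (-1.83), Nrn1 (-1.65) and Olr1 (5.00).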

How the results depend on the processing

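DESeq2, DESeq2 size factors, no filter, a fit of the 4 libraries alone, an adjusted p below 0.01, a prior count of 2 and scaling by library totals (chosen after seeing the data) left the counts of genes called over the whole table within 1.5 times their reported values. Requiring 10 counts in every library, which tests fewer genes, left 278 genes higher. On FPKM with limma, 131 genes were higher and 283 lower at a pseudocount of 1 with a filter, 133 and 283 without a filter, and 219 were higher at a pseudocount of 0.1, and the cause was not tested. Elk4 then no longer passed without a filter (log2 0.18, adjusted p = 0.113) or at a pseudocount of 0.1 (0.19, adjusted p = 0.053). Leaving out 1 library left 394 to 415 genes higher and 595 to 621 lower, 2538 to 2696 and 2767 to 2804 without the fold threshold, and Elk4 at 0.18 to 0.29.

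With the replicate number as a replicate block, 465 genes were higher and 646 lower, and in the fit of 4 libraries with the block 438 and 621. Within lists, the block took S phase genes higher from 1 to 2 and MHC genes lower from 1 to 2, and in the fit of 4 libraries with the block immediate-early genes higher and prostaglandin genes higher each went from 5 to 3. The libraries share only a number here. Other small counts within lists moved as well. At an adjusted p below 0.01 interferon-stimulated genes higher went from 3 to 1 and sex-linked genes lower from 1 to 0. Scaling by library totals took mast cell receptors and lineage factors lower from 1 to 4 and immediate-early genes higher from 5 to 3. On FPKM, chemokine, complement and prostanoid receptors higher went from 10 to 5 at a pseudocount of 1 with a filter, and TCF-bound genes higher from 14 to 9 at a pseudocount of 0.1. Of 142 named genes no direction turned. Among their tests, 23 were lost and 7 gained under settings that kept every library, against 1769 that stayed, and 17 were lost when 1 library was left out, in Elk3, Cdk6, Rb1, Usp18, Kdm6a, Cd1d1, Eif2s3x and Rab3a. With 2 libraries a group, small differences rest on the spread shared by all 6 groups.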

Other observations

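Runs of adjacent genes called in the same direction were listed after their values were seen, with the order of tested genes taken from RefSeq. There were 42 such runs of higher genes (98 genes) and 52 of lower genes (111 genes). Some runs arise from the number of genes called alone, and how many was not computed. The longest held 6 genes, Abcg3 with 5 guanylate-binding protein genes, which encode GTPases of defence against intracellular microbes. Gbp4 rose from 700 and 656 counts to 3153 and 3005 (log2 2.19), Gbp6 from 314 and 352 to 2105 and 2105 (2.67) and Gbp9 from 136 and 181 to 891 and 889 (2.50). Gbp8 and Gbp10 were higher at low counts. Gbp2, Gbp3, Gbp5 and Gbp7 did not pass, at 0.11, -0.45, 0.10 and 0.13. In stimulated cells Gbp4 differed by 0.32 and Gbp6 by 0.82. These genes are near copies of each other, so reads may be split between them.

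Genes of fatty acid desaturation lay side by side as well. Scd1 rose from 471 and 438 counts to 2338 and 2323 (log2 2.37) and Scd2 from 7537 and 8186 to 22673 and 21332 (1.49), with Scd4 at 10 and 12 against 59 and 42. The homeobox genes Hoxb4 (191 and 168 counts to 415 and 372, log2 1.14) and Hoxb3 (72 and 46 to 185 and 201, log2 1.71) were higher together with Hoxb2 and Hoxb5 at lower counts. Cd300lb, an activating receptor of myeloid cells, rose from 4128 and 4142 counts to 9315 and 9083 (1.16). Among receptor genes of the Mrgpr family, Mrgprb1 rose from 76 and 79 to 297 and 252 (1.83) and its neighbour Mrgprx2 from 71 and 79 to 322 and 236 (1.90). Mrgprb2, whose product the paper describes as a mast cell surface receptor, had 1196 and 1156 against 1100 and 1041 and did not pass. These 3 differed by 3.71, 3.90 and 1.31 in stimulated HZ against WT.

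A pair of neighbours was at or near 0 in WT. Gpr65, a proton-sensing receptor, showed no count in either WT library and 5 and 16 in HZ, at least 3.57-fold higher against a floor of 3 counts per library, a call that was lost on FPKM with limma (adjusted p of 0.0959 and 0.130). Galc, a lysosomal enzyme of myelin lipids, went from 5 and 28 counts to 73 and 64 (log2 2.06).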
